A study of Homo sapiens with 9 samples.

Results

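The 36 genes examined here encode the enzymes and transporters of glycolysis and the best known targets and sensors of the response to low oxygen. They were set by a list of gene names that was drawn up with earlier results of these data known, although its rule uses no measured value, and each name was matched through its Ensembl ID to 1 of the 58096 genes in the count files. They fall into 4 transporters of glucose and lactate, 9 enzymes of the energy-investing steps of glycolysis, 6 enzymes of the energy-yielding steps, 5 lactate dehydrogenase subunits and regulators of flux, 3 genes of oxygen sensing and 9 other genes induced by hypoxia. Of the 36, 33 had enough reads to be tested among 16072 tested genes, and PDK1, BNIP3 and P4HA2 did not.

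The libraries were made from total RNA of ALL-SIL, a human T-cell acute lymphoblastic leukaemia line, 24 h after electroporation with siRNA s46, siRNA s47 or a scrambled siRNA, with 3 libraries in each of the 3 groups. Both s46 and s47 are directed against TLX1, a homeobox gene whose misplaced activity drives part of these leukaemias. The labels give 400 nM for the scrambled siRNA and no dose for s46 or s47, and all 3 groups share the line, the serum-containing medium and the electroporation. The study asks which transcripts differ in these cells when TLX1 is reduced. All values come from 1 line, and no label names an oxygen level or states that replicates were separate cultures. The p-values therefore reflect only the spread among these libraries, which may be technical.

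Glycolysis splits glucose into pyruvate, and in rapidly dividing leukaemia cells much of that pyruvate becomes lactate, which leaves the cell through monocarboxylate transporters. When oxygen is low, prolyl hydroxylases of the EGLN family stop marking the HIF1A protein for destruction, and HIF1A then switches on transporters, nearly every glycolytic enzyme and a group of stress genes. HIF1A is controlled mainly at the level of its protein, which was not measured here.

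Each library held 21134650 to 33393740 reads on the sense strand of genes. Scrambled replicate 1 stood apart from the other 8 libraries: 14.4% of its reads mapped to several places against 6.36% to 7.34% elsewhere, 39.9% of its reads fell in genes against 52.7% to 59.9%, and it correlated with the other scrambled libraries at r = 0.967 and 0.975 across genes against 0.985 to 0.990 for the other pairs within a group. Results are therefore given with and without it. TLX1 was at 63.7, 87.3 and 78.7 CPM (TMM-scaled counts relative to library size) with s46 and 63.5, 73.7 and 75.0 CPM with s47, against 198, 188 and 171 CPM with scrambled siRNA. With both siRNAs averaged, it fell by 1.34 ± 0.11 on the log2 scale (SE; edgeR adjusted p 0.000394). Markers of the T lineage (CD3D, CD3E, CD3G, LCK, BCL11B and 6 others) summed to 2087 to 2338 CPM with the TLX1 siRNAs and 1958 to 2339 CPM with scrambled siRNA. Among them CD3D stood at 366 to 397 CPM with the TLX1 siRNAs and 234 to 350 CPM with scrambled siRNA without overlap. The others overlapped, and CD2 was low, at 2.43 to 5.76 CPM with the TLX1 siRNAs and 1.34 to 3.38 CPM with scrambled siRNA. The 6 myeloid and the 6 erythroid markers summed to under 1 CPM in every library, with HBA1, HBA2 and ALAS2 at 0. The 6 B-lineage markers summed to 10.4 to 14.8 CPM with the TLX1 siRNAs and 11.1 to 13.3 CPM with scrambled siRNA, nearly all from CD79A and CD79B, and CD22 was at 0. The 6 stromal, endothelial and epithelial markers summed to 103 to 126 CPM with the TLX1 siRNAs and 88.0 to 97.7 CPM with scrambled siRNA without overlap, all but a few reads from PECAM1, which leukocytes also express, since COL1A1, COL1A2, VWF, EPCAM and KRT18 had at most 3 reads in any library. The part of these levels in the results was not tested.

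With group as the only term of the fit, none of the 33 tested genes of glycolysis and hypoxia passed the threshold with either siRNA. For the mean of both siRNAs against scrambled siRNA, edgeR's quasi-likelihood test called 0 of 33 members at an adjusted p under 0.05, where 0.566% of all tested genes (91 of 16072) were called. With s46 alone it called 0 of 33 (background 0.174%), with s47 alone 0 of 33 (background 0.33%) and between s46 and s47 0 of 33 (background 0%). An unadjusted p under 0.05 was reached by 9 members (4 higher, 5 lower) with both siRNAs averaged, which is 27.3% of the 33 where 17.8% of all tested genes passed. DESeq2 called 2 of the 33, HIF1A higher (adjusted p 0.0189) and SLC16A3 lower (adjusted p 0.022), where it called 2.85% of all genes, and it called none with either siRNA alone. With the replicate number as a block, edgeR called SLC16A3 (adjusted p 0.0461) and EGLN3 (adjusted p 0.0472) lower for the mean of both siRNAs (background 1.38%), DDIT4 lower with s47 (adjusted p 0.0424; background 0.778%) and 0 of 33 with s46 (background 0.46%). Without scrambled replicate 2, 5 members were called for the mean of both siRNAs (HIF1A, EGLN1, SLC16A1 and LDHB higher, DDIT4 lower), where 10.1% of all tested genes were called. With both siRNAs averaged, the median log2 difference of the members was 0.028 beside -0.027 over all tested genes, and 17 of 33 were above 0. With library totals in place of the composition scaling the members' median was -0.036. The 3 scrambled libraries served both siRNAs, so the differences of s46 and of s47 are not independent of each other.

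The differences were also bounded in size. The 95% interval of the log2 difference lay within 2-fold in both directions for 28 of the 33 members and within 1.5-fold for 18. The 5 genes whose interval reached past 2-fold were SLC16A3, PFKFB3, PFKFB4, EGLN3 and DDIT4, and in all of them the point estimate was below 0. Without scrambled replicate 1, 0 of the 33 were called (background 0.666%), their median was -0.064 and 13 of 33 were above 0. Likewise 0 of 33 were called with s46 (background 0.293%), with s47 (background 0.422%) and between the siRNAs (background 0%). In that fit 26 of 33 intervals for the mean of both siRNAs lay within 2-fold.

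**Figure D1:**
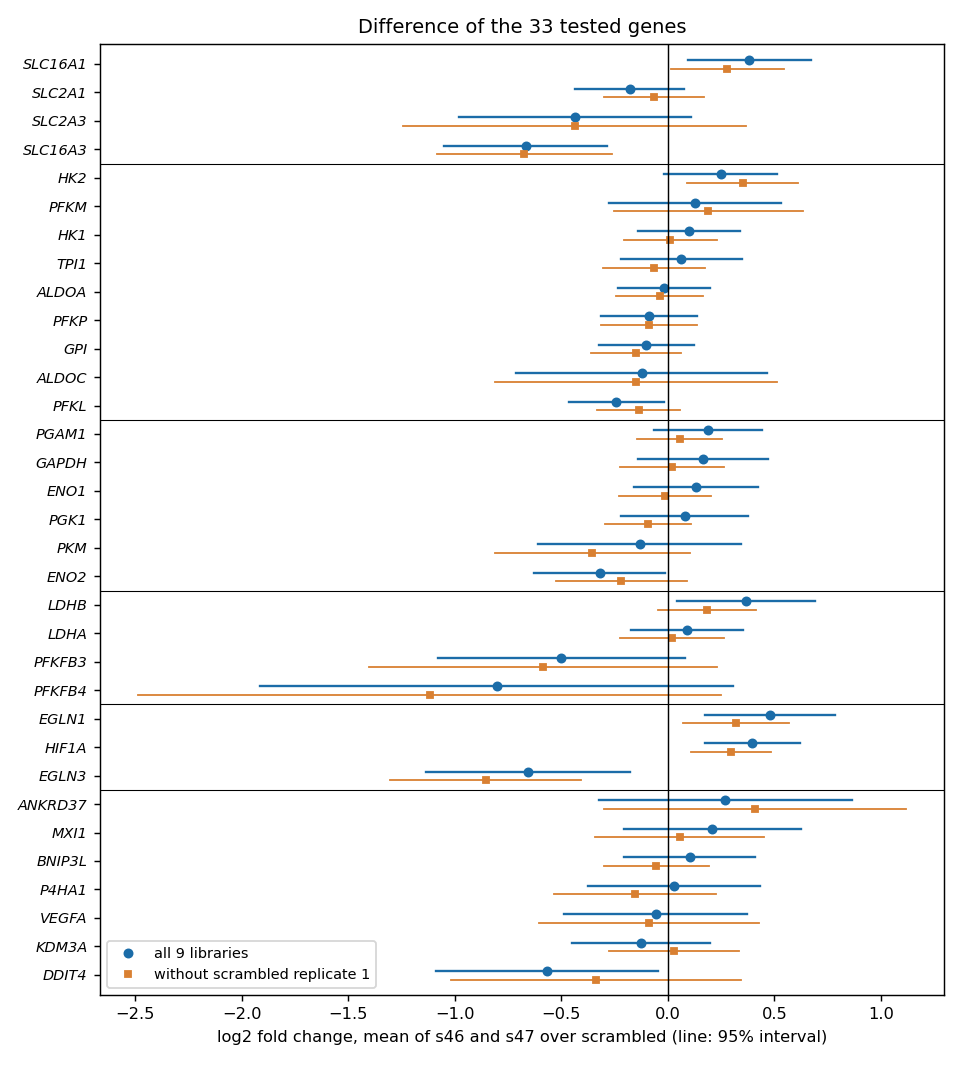
Log2 fold change of the 33 tested genes for the mean of s46 and s47 over scrambled siRNA (x axis; lines, 95% intervals), grouped by role, with all 9 libraries (blue circles) and without scrambled replicate 1 (orange squares). Most intervals cross 0; those of HIF1A (0.40), EGLN1 (0.48) and SLC16A1 (0.38) lie above it and those of SLC16A3 (-0.67) and EGLN3 (-0.66) below it, with and without that library, and no gene passed the adjusted threshold.

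Few members separated the groups library by library. In 2 of 33 members, HIF1A and EGLN1, all 6 TLX1 siRNA libraries lay above all 3 scrambled libraries, where 4.47% of all tested genes did so. In 1 of 33, SLC16A3, all 6 lay below all 3 scrambled libraries, where 3.65% of all tested genes did so. When only scrambled replicates 2 and 3 were considered, HK2 joined HIF1A and EGLN1 above them (background 6.27%), and SLC16A3, PGK1, PKM, PFKFB4 and EGLN3 lay below them (background 5.56%).

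The short DNA words ACGTG and GCGTG form the core that HIF1A and its partner recognise, so the promoters of the 3 members that separated the groups are shown, and that of DDIT4 as a variable member with 4 copies of the words. RefSeq promoter windows on GRCh38.p14, 300 bases each from 250 before to 50 after a gene's start, were at hand for 32 of the 36 genes, with VEGFA, SLC2A3, SLC16A1 and BNIP3L not in the table. Sequences run 5′ to 3′ on the gene's own strand, and capitals mark each ACGTG or GCGTG. SLC16A3 has 5 listed starts and HIF1A has 2, of which 3 and 1 hold a core word, and of each gene the window with the most copies of ACGTG, then of either word, is printed.
SLC16A3 promoter, chr17:82228792-82229091, plus strand: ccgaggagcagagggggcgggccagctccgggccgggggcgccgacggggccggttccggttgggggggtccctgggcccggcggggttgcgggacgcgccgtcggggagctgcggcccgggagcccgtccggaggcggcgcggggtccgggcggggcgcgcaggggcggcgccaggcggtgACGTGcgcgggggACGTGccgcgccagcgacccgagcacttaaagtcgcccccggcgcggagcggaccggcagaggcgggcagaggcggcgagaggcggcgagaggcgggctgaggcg
EGLN1 promoter, chr1:231422238-231422537, minus strand: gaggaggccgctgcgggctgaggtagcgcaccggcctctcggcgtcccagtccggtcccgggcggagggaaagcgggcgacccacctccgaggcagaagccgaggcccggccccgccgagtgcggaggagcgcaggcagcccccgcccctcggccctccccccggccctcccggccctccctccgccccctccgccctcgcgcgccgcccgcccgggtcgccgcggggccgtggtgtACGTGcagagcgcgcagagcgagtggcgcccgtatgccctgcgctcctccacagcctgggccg
HIF1A promoter, chr14:61695263-61695562, plus strand: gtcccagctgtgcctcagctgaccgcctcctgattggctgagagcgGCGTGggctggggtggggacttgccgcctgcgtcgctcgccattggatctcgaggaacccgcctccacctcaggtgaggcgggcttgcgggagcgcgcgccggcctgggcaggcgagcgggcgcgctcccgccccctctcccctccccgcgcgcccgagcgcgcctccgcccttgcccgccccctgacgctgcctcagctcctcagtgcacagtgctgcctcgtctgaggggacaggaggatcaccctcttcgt
DDIT4 promoter, chr10:72273674-72273973, plus strand: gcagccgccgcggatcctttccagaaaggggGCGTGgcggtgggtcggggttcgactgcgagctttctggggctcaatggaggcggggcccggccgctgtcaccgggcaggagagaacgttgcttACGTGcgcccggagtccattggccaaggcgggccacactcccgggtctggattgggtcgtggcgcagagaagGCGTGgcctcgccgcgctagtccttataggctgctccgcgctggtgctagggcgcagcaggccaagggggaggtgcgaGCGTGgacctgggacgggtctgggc
The SLC16A3 window held ACGTG at 2 places, the EGLN1 window held 1 ACGTG, the HIF1A window held 1 GCGTG, and the DDIT4 window held 1 ACGTG among 4 core words.

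Core words were common in these promoters, in genes above and below 0 alike. Either word, on either strand, occurred in 41 of 62 member windows (66.1%), against 48.5% of all 35116 windows in the table, and ACGTG alone in 24 (38.7%) against 21.4%. CACGTG, the E-box word that MYC and its relatives recognise, contains ACGTG, and it was among the matches in 8 of the 32 genes. At least 1 window of 29 of the 32 genes held a core word, where 52.4% of all genes in the table did. EGLN3, P4HA2 and PGAM1 had none in these windows. The 27 tested members with a core word had a median log2 difference of 0.028, with 14 above 0 and 13 below. The SLC16A3 and EGLN1 promoters, both with ACGTG, belonged to genes that lay on opposite sides of the scrambled libraries.

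Levels differed far more between genes than between groups. On a per-length scale (RPKM, reads scaled for exon length and library size), GAPDH was the most abundant member, at 761 ± 89.6 with s46, 783 ± 73.5 with s47 and 688 ± 127 with scrambled siRNA (SD, n = 3 each). ENO1 followed at 580.4 ± 50.6 with s46, 597 ± 19.6 with s47 and 538 ± 99.96 with scrambled siRNA, and PGK1, LDHB, ALDOA, LDHA and TPI1 lay next, between 139 and 225 in every group mean. SLC16A3, VEGFA, PFKFB4, EGLN3, PFKM and ALDOC were the lowest of the tested genes, each under 3 in every group. The order of neighbours such as LDHB, ALDOA and LDHA was within their spread between libraries.

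**Figure D2:**
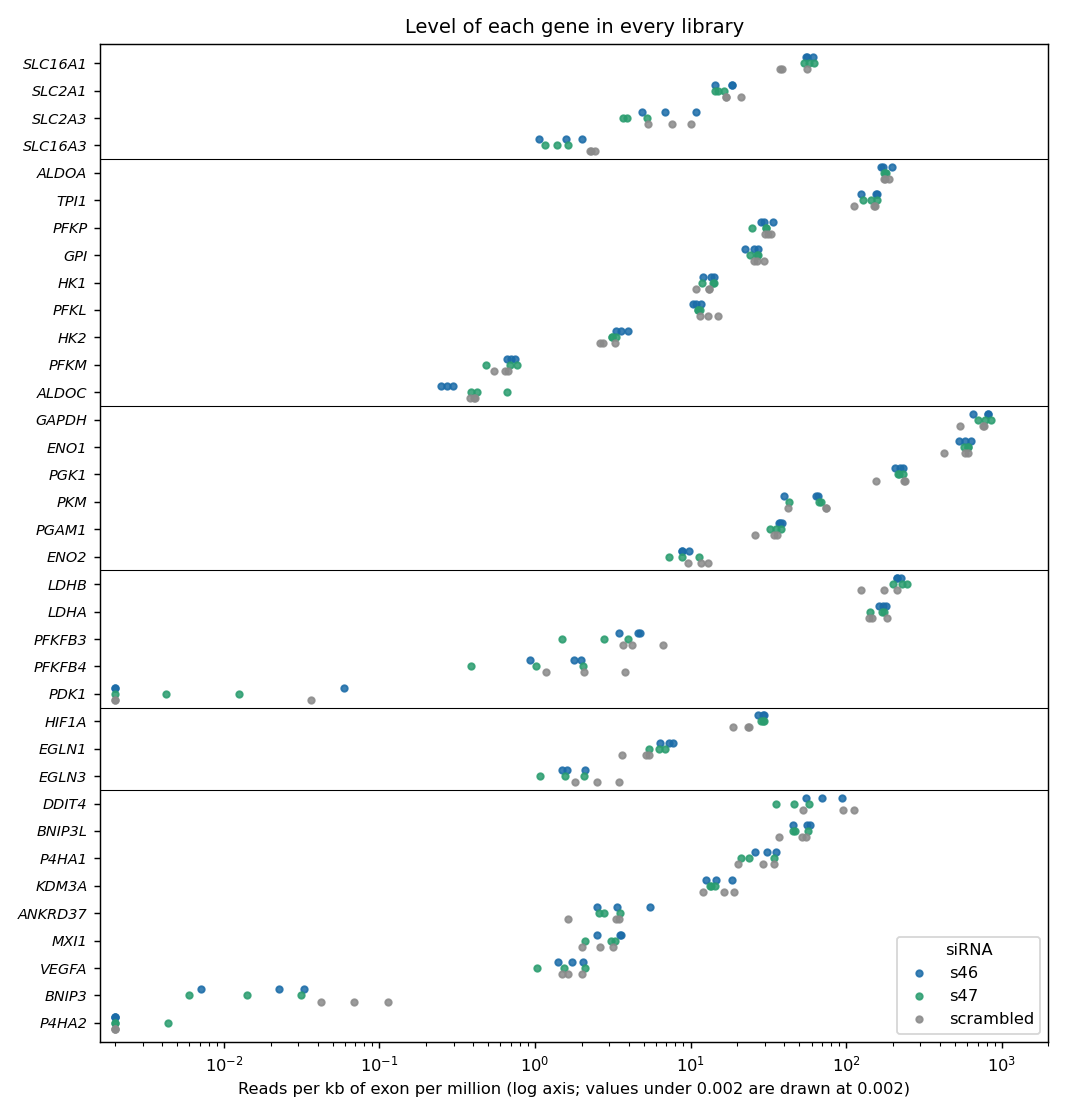
Level of each of the 36 genes in every library (x axis, RPKM, log axis), grouped by role, with s46 in blue, s47 in green and scrambled siRNA in grey. GAPDH and ENO1 are highest, at group means of 538 to 783, and the 3 groups overlap in nearly all genes; PDK1, BNIP3 and P4HA2 stand at the bottom, with 1 to 51 reads over all 9 libraries.

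Among the transporters, the lactate carriers had log2 differences of opposite sign and the glucose carriers did not separate the groups. SLC16A3 encodes MCT4, the lactate exporter typical of glycolytic cells. SLC16A3 had 9.53, 18.0 and 14.2 CPM with s46 and 10.4, 14.6 and 12.4 CPM with s47, against 20.7, 20.4 and 21.7 CPM with scrambled siRNA. Every TLX1 siRNA library was below every scrambled library, and the 3 scrambled libraries lay close together. The log2 difference was -0.67 ± 0.18 (SE; edgeR adjusted p 0.125), and -0.59 with s46 and -0.75 with s47, and it was -0.67 ± 0.19 (SE; edgeR adjusted p 0.193) without scrambled replicate 1. In bulk RNA, fewer cells with a transcript and less of it per cell cannot be told apart. SLC16A3 lies opposite CSNK1D, and 8.58% of its stranded reads were on the opposite strand.

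SLC16A1 had 299, 323 and 292 CPM with s46 and 329.9, 305 and 287 CPM with s47, against 199, 297 and 207 CPM with scrambled siRNA, where SLC16A1 encodes MCT1, which carries lactate in either direction. Scrambled replicate 2 lay among the TLX1 siRNA libraries and the other scrambled libraries lay below all of them. The log2 difference was 0.38 ± 0.13 (SE; edgeR adjusted p 0.213), or 0.28 ± 0.12 (SE; edgeR adjusted p 0.554) without scrambled replicate 1. Without scrambled replicate 2 it was 0.60 ± 0.11 (SE; edgeR adjusted p 0.0171). Per length, SLC16A1 stood at 57.4 ± 3.11 with s46, 57.8 ± 4.09 with s47 and 44.2 ± 10.3 with scrambled siRNA, and SLC16A3 at 1.55 ± 0.472 with s46, 1.39 ± 0.233 with s47 and 2.33 ± 0.0781 with scrambled siRNA (SD, n = 3 each).

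SLC2A3 had 67.1, 29.9 and 42.1 CPM with s46 and 24.0, 22.5 and 32.2 CPM with s47, against 46.9, 32.7 and 61.9 CPM with scrambled siRNA. SLC2A3 encodes GLUT3, a glucose importer of high affinity, and its libraries overlapped between the groups, with s46 replicate 1 the highest and s47 replicate 2 the lowest. With both siRNAs averaged the log2 difference was -0.44 ± 0.25 (SE; edgeR adjusted p 0.367), and without scrambled replicate 1 it was -0.44 ± 0.34 (SE; edgeR adjusted p 0.795). The siRNAs differed from each other by 0.82 ± 0.29 (SE; edgeR unadjusted p 0.0172, adjusted p 1), s46 over s47. SLC2A1, encoding GLUT1, the widespread glucose importer that HIF1A induces, stood at 68.3 to 87.8 CPM with the TLX1 siRNAs and 79.8 to 100.2 CPM with scrambled siRNA, with a log2 difference of -0.18 ± 0.12 (SE; edgeR adjusted p 0.427). Per length, SLC2A1 was at 17.2 ± 2.37 with s46, 15.3 ± 1.06 with s47 and 18.4 ± 2.45 with scrambled siRNA, and SLC2A3 at 7.53 ± 3.08 with s46, 4.26 ± 0.848 with s47 and 7.66 ± 2.37 with scrambled siRNA (SD, n = 3 each). The median log2 difference of the 4 transporters was -0.31, or -0.25 without scrambled replicate 1.

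The 9 enzymes of the energy-investing steps differed little. Hexokinases trap glucose in the cell as its phosphate, and HK2 is the isoenzyme that HIF1A induces. HK2 had 21.7, 24.2 and 20.2 CPM with s46 and 20.2, 18.8 and 18.9 CPM with s47, against 19.8, 16.5 and 15.8 CPM with scrambled siRNA. Scrambled replicate 1 lay inside the range of the TLX1 siRNA libraries, and scrambled replicates 2 and 3 lay below all of them. The log2 difference of HK2 was 0.25 ± 0.12 (SE; edgeR adjusted p 0.307), or 0.35 ± 0.12 (SE; edgeR adjusted p 0.349) without scrambled replicate 1, and that of HK1, the housekeeping isoenzyme, was 0.10 ± 0.11 (SE; edgeR adjusted p 0.646). Per length, HK1 was at 13.2 ± 1.12 with s46, 13.3 ± 1.26 with s47 and 12.4 ± 1.36 with scrambled siRNA, and HK2 at 3.63 ± 0.332 with s46, 3.18 ± 0.131 with s47 and 2.87 ± 0.351 with scrambled siRNA (SD, n = 3 each).

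Phosphofructokinase makes the committed step of the pathway, and its platelet-type isoenzyme PFKP was the most abundant here, at 30.6 ± 2.79 with s46, 28.8 ± 3.26 with s47 and 31.5 ± 1.26 with scrambled siRNA per length (SD, n = 3 each). The liver-type isoenzyme PFKL followed at 11.0 ± 0.639 with s46, 11.2 ± 0.175 with s47 and 13.2 ± 1.74 with scrambled siRNA. PFKL had 93.1, 104 and 97.4 CPM with s46 and 99.3, 99.7 and 102 CPM with s47, against 134, 103 and 116 CPM with scrambled siRNA. Scrambled replicate 1 was the highest library and scrambled replicate 2 lay among the TLX1 siRNA libraries. The log2 difference of PFKL was -0.24 ± 0.10 (SE; edgeR adjusted p 0.256), or -0.14 ± 0.09 (SE; edgeR adjusted p 0.739) without scrambled replicate 1, and PFKP had a difference of -0.09 ± 0.10 (SE; edgeR adjusted p 0.663). PFKM, the muscle-type isoenzyme, was at 3.56 to 5.62 CPM with the TLX1 siRNAs and 3.98 to 4.93 CPM with scrambled siRNA, and 54.5% of its stranded reads were on the opposite strand, where SENP1 overlaps it.

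Glucose-6-phosphate isomerase (GPI), aldolase A (ALDOA) and triosephosphate isomerase (TPI1) carry the sugar down to the triose stage. GPI stood at 239 to 291 CPM with the TLX1 siRNAs and 272 to 316 CPM with scrambled siRNA, ALDOA at 659.7 to 771 CPM with the TLX1 siRNAs and 687 to 744 CPM with scrambled siRNA and TPI1 at 337 to 429.8 CPM with the TLX1 siRNAs and 305 to 415 CPM with scrambled siRNA. Their log2 differences were -0.10, -0.02 and 0.06, and the 95% interval of ALDOA, -0.24 to 0.20, was the narrowest of the members. ALDOC, the brain-type aldolase, was at 0.274 ± 0.0247 with s46, 0.490 ± 0.150 with s47 and 0.400 ± 0.0158 with scrambled siRNA per length where ALDOA was at 179 ± 15.4 with s46, 178 ± 3.18 with s47 and 181 ± 7.98 with scrambled siRNA (SD, n = 3 each). ALDOC had 0.801, 0.730 and 0.875 CPM with s46 and 1.24, 1.94 and 1.13 CPM with s47, against 1.12, 1.18 and 1.21 CPM with scrambled siRNA. All 3 s46 libraries were below the other 6, the siRNAs differed by -0.84 ± 0.32 (SE; edgeR unadjusted p 0.0199, adjusted p 1), s46 over s47, and with both averaged the difference from scrambled siRNA was -0.12 ± 0.27 (SE; edgeR adjusted p 0.835). The median over the 9 enzymes was -0.018, or -0.065 without scrambled replicate 1.

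Of the 6 energy-yielding enzymes, 4 were lowest in the same library, scrambled replicate 1, which also had the most multimapping reads; the part of those reads in these values was not tested. GAPDH, the triosephosphate dehydrogenase, stood at 1961 to 2554 CPM with the TLX1 siRNAs and 1615 to 2282 CPM with scrambled siRNA, and the lowest scrambled value was replicate 1, with the other scrambled libraries at 2282 and 2258 CPM. PGK1 had 1137, 1233 and 1274 CPM with s46 and 1199, 1195 and 1285 CPM with s47, against 862, 1290.2 and 1316 CPM with scrambled siRNA, PGK1 being the first enzyme of the pathway that makes ATP. Scrambled replicate 1 was the lowest of all 9 libraries, and scrambled replicates 2 and 3 were the highest. The log2 difference of PGK1 was 0.08 ± 0.14 (SE; edgeR adjusted p 0.783), and without scrambled replicate 1 it was -0.09 ± 0.09 (SE; edgeR adjusted p 0.837), on the other side of 0. ENO1, the main enolase, and PGAM1, a phosphoglycerate mutase, were lowest in the same library, at 2232 and 66.3 CPM. Over the 6 enzymes, the median deviation from the mean of 9 libraries was -0.44 on the log2 scale in scrambled replicate 1 and -0.12 to 0.17 in the other 8 libraries. The median log2 difference between the groups was 0.10 with all libraries and -0.054 without scrambled replicate 1.

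PKM had 342, 563 and 548 CPM with s46 and 370.0, 588 and 571 CPM with s47, against 363, 636 and 635 CPM with scrambled siRNA. PKM encodes pyruvate kinase, the last enzyme of glycolysis, and in each group the library numbered 1 was the lowest. Its log2 difference was -0.13 ± 0.22 (SE; edgeR adjusted p 0.768), or -0.35 ± 0.21 (SE; edgeR adjusted p 0.7) without scrambled replicate 1. ENO2 had 37.9, 37.9 and 41.6 CPM with s46 and 31.0, 37.7 and 48.6 CPM with s47, against 55.6, 41.1 and 50.1 CPM with scrambled siRNA; ENO2 is the neuronal enolase, which hypoxia also induces. Scrambled replicate 2 lay within the range of the TLX1 siRNA libraries, and scrambled replicate 1 was the highest library. The log2 difference of ENO2 was -0.32 ± 0.14 (SE; edgeR adjusted p 0.268), or -0.22 ± 0.14 (SE; edgeR adjusted p 0.739) without scrambled replicate 1. Per length, ENO2 was at 9.15 ± 0.50 with s46, 9.14 ± 2.08 with s47 and 11.4 ± 1.71 with scrambled siRNA (SD, n = 3 each). GAPDH has 62 annotated pseudogene copies, whose own reads came to 0.696% of the summed reads, and PGAM1 has 13, at 2.35%, so the counts of these genes are uncertain to the extent that reads were split or set aside as multimapping.

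**Figure D3:**
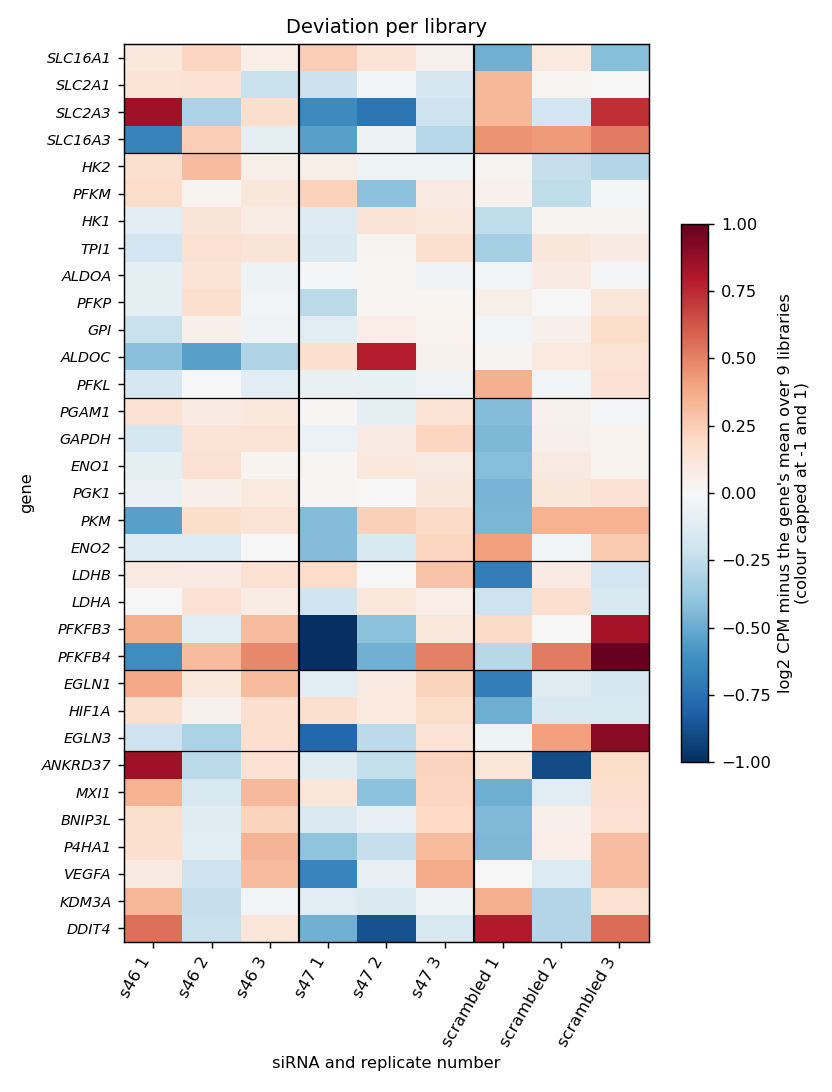
Deviation of each tested gene's log2 CPM from its mean over the 9 libraries (colour, capped at -1 and 1; rows, genes by role; columns, libraries). GAPDH, PGK1, PGAM1 and ENO1 are lowest in scrambled replicate 1, where 14 of the 33 members have their lowest value, and PFKFB4, SLC2A3 and DDIT4 vary between libraries of the same group. The share of all tested genes that are lowest in scrambled replicate 1 was not counted, so the 14 cannot be read as a trait of the members.

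Lactate dehydrogenase turns pyruvate into lactate and back. LDHB had 637, 636 and 668 CPM with s46 and 679.8, 599.8 and 731 CPM with s47, against 372, 634 and 526 CPM with scrambled siRNA. LDHB is the heart-type subunit; scrambled replicate 2 lay within the range of the TLX1 siRNA libraries, scrambled replicate 3 was below them and scrambled replicate 1 was the lowest. Its log2 difference was 0.37 ± 0.15 (SE; edgeR adjusted p 0.246), or 0.18 ± 0.11 (SE; edgeR adjusted p 0.689) without scrambled replicate 1. Without scrambled replicate 2 it was 0.56 ± 0.14 (SE; edgeR adjusted p 0.0337). LDHA, the muscle-type subunit and a classic HIF1A target, stood at 885 to 1122 CPM with the TLX1 siRNAs and 877 to 1137 CPM with scrambled siRNA, with a log2 difference of 0.09 ± 0.12 (SE; edgeR adjusted p 0.711). Per length, LDHB was at 217 ± 6.14 with s46, 225 ± 22.2 with s47 and 171 ± 44.2 with scrambled siRNA, and LDHA at 172 ± 8.85 with s46, 163 ± 17.9 with s47 and 157 ± 22.7 with scrambled siRNA (SD, n = 3 each).

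PFKFB3 and PFKFB4 make and break fructose-2,6-bisphosphate, the strongest activator of phosphofructokinase, and both respond to hypoxia. PFKFB4 had 5.64, 10.9 and 12.2 CPM with s46 and 2.36, 6.24 and 12.4 CPM with s47, against 7.17, 12.5 and 23.2 CPM with scrambled siRNA. Its libraries varied widely within each group: s47 replicate 1 was the lowest and scrambled replicate 3 the highest, and the groups overlapped. The log2 difference, -0.80 ± 0.49 (SE; edgeR adjusted p 0.406), was the largest of the members in size, and without scrambled replicate 1 it was -1.12 ± 0.57 (SE; edgeR adjusted p 0.67). The within-group SD of its log2 level was 0.907, where the median over members was 0.223 and over all tested genes 0.253. PFKFB3 had 29, 21.1 and 28.2 CPM with s46 and 9.14, 17 and 24.3 CPM with s47, against 25.9, 22.7 and 40.4 CPM with scrambled siRNA. The groups overlapped, with s47 replicate 1 lowest and scrambled replicate 3 highest as for PFKFB4. Its log2 difference was -0.50 ± 0.27 (SE; edgeR adjusted p 0.335), -0.18 with s46 and -0.82 with s47, or -0.59 ± 0.35 (SE; edgeR adjusted p 0.726) without scrambled replicate 1. Per length, PFKFB3 was at 4.27 ± 0.715 with s46, 2.75 ± 1.24 with s47 and 4.85 ± 1.54 with scrambled siRNA, and PFKFB4 at 1.57 ± 0.565 with s46, 1.15 ± 0.830 with s47 and 2.34 ± 1.33 with scrambled siRNA (SD, n = 3 each).

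PDK1, the kinase that shuts pyruvate dehydrogenase under hypoxia, was too low to test with all 9 libraries. It had 23, 0 and 0 reads with s46 and 5, 2 and 0 reads with s47, against 12, 0 and 0 reads with scrambled siRNA. In each group most or all of its reads came from the library numbered 1. A library's floor of 3 reads corresponds to 0.0898 to 0.142 CPM, for counting error only.

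The oxygen-sensing genes held the differences with the smallest p-values among the higher members. HIF1A had 151, 140.1 and 152 CPM with s46 and 151, 146 and 154 CPM with s47, against 96.9, 121 and 122 CPM with scrambled siRNA, HIF1A being the oxygen-regulated subunit of the factor itself. All 6 TLX1 siRNA libraries were above all 3 scrambled libraries, with scrambled replicate 1 the lowest. The log2 difference was 0.40 ± 0.10 (SE; edgeR adjusted p 0.119), 0.39 with s46 and 0.41 with s47, and without scrambled replicate 1 it was 0.30 ± 0.09 (SE; edgeR adjusted p 0.208). Without scrambled replicate 2 it was 0.45 ± 0.11 (SE; edgeR adjusted p 0.0323).

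EGLN1 had 55.6, 45.9 and 53.2 CPM with s46 and 39.5, 45.6 and 49.8 CPM with s47, against 26.4, 39.3 and 37.8 CPM with scrambled siRNA. EGLN1 is the main prolyl hydroxylase that marks HIF1A, and again the groups did not overlap, although s47 replicate 1 was within 1 CPM of scrambled replicate 2. The log2 difference was 0.48 ± 0.14 (SE; edgeR adjusted p 0.167), 0.58 with s46 and 0.38 with s47, and without scrambled replicate 1 it was 0.32 ± 0.12 (SE; edgeR adjusted p 0.381). Without scrambled replicate 2 it was 0.59 ± 0.16 (SE; edgeR adjusted p 0.0384). EGLN3 had 11.9, 11.0 and 15.4 CPM with s46 and 7.94, 11.5 and 15.1 CPM with s47, against 13.3, 18.3 and 25.7 CPM with scrambled siRNA. EGLN3 is a hydroxylase that HIF1A itself induces. Its s46 replicate 3 and s47 replicate 3 values lay above scrambled replicate 1, and all 6 TLX1 siRNA libraries lay below scrambled replicates 2 and 3. The log2 difference was -0.66 ± 0.22 (SE; edgeR adjusted p 0.208), -0.58 with s46 and -0.73 with s47, and without scrambled replicate 1 it was -0.86 ± 0.21 (SE; edgeR adjusted p 0.111). Per length, EGLN1 was at 7.10 ± 0.696 with s46, 6.19 ± 0.712 with s47 and 4.75 ± 0.974 with scrambled siRNA, and EGLN3 at 1.73 ± 0.318 with s46, 1.56 ± 0.487 with s47 and 2.59 ± 0.845 with scrambled siRNA (SD, n = 3 each).

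The word GCAGTAC, chosen for this search with earlier results of these data known, was found in the 3′ UTR of 1 of the 33 tested members, HIF1A, where 5.22% of 11052 tested genes with an annotated 3′ UTR carry it. Its site is shown with 8 bases on either side and the word in capitals, beside that of IDH3A, the citric acid cycle gene described below. IDH3A, the only called gene of the other lists, was the only gene outside the members whose site was looked at. The pair therefore does not show how often the word goes with a difference in level, which was not tested.
HIF1A 3′ UTR, chromosome 14: ctttgccaGCAGTACgtggtagc
IDH3A 3′ UTR, chromosome 15: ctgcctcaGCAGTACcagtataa
PDK1, too low to test, also carried the word.

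**Figure D4:**
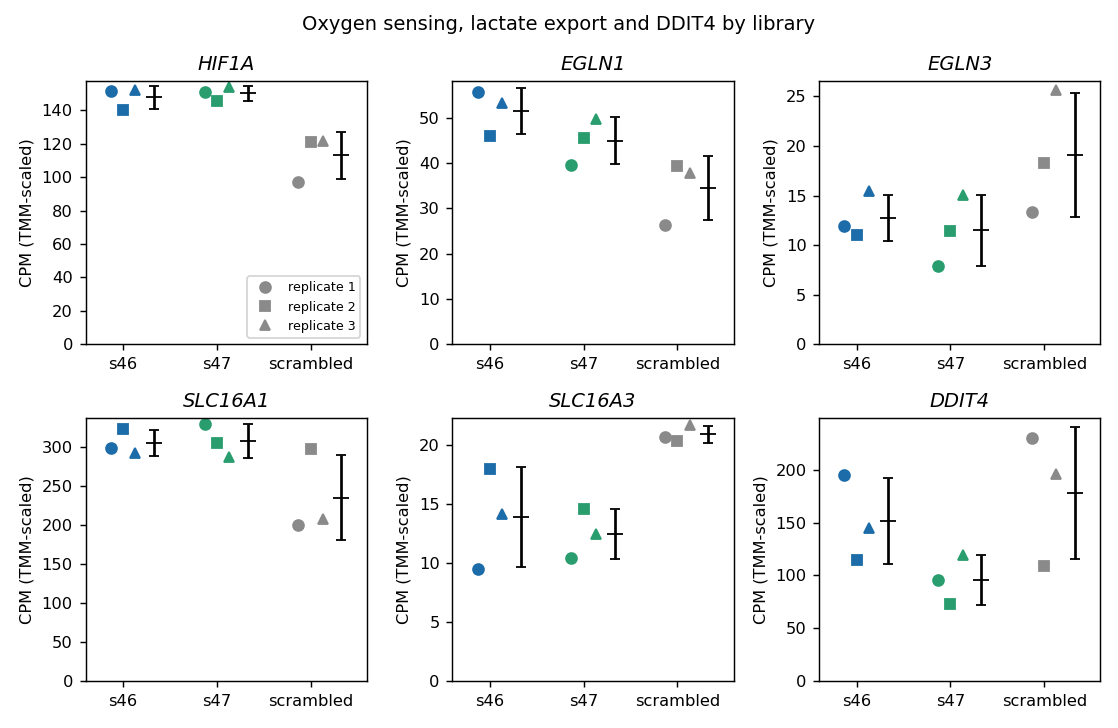
CPM of HIF1A, EGLN1, EGLN3, SLC16A1, SLC16A3 and DDIT4 in each library (y axes from 0; circles, squares and triangles are replicates 1, 2 and 3; bars, mean and SD, n = 3). HIF1A (140.1 to 154 CPM with the TLX1 siRNAs and 96.9 to 122 CPM with scrambled siRNA) and EGLN1 lie above the scrambled libraries and SLC16A3 below them, whereas EGLN3, SLC16A1 and DDIT4 overlap.

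The other hypoxia-induced genes had no common direction. DDIT4 had 195, 114 and 145 CPM with s46 and 95.6, 72.6 and 119 CPM with s47, against 231, 109 and 196 CPM with scrambled siRNA. DDIT4 (REDD1) restrains mTORC1 under hypoxia and other stresses, and its groups overlapped: scrambled replicate 2 lay below s46 replicates 1, 2 and 3, and s47 replicate 2 was the lowest library. The log2 difference was -0.57 ± 0.24 (SE; edgeR adjusted p 0.258), -0.24 with s46 and -0.90 with s47, and without scrambled replicate 1 it was -0.34 ± 0.29 (SE; edgeR adjusted p 0.816). Without scrambled replicate 2 it was -0.82 ± 0.20 (SE; edgeR adjusted p 0.0323). The siRNAs differed by 0.66 ± 0.28 (SE; edgeR unadjusted p 0.0385, adjusted p 1), s46 over s47. ANKRD37 had 14.1, 6.50 and 8.72 CPM with s46 and 7.19, 6.62 and 9.15 CPM with s47, against 8.51, 4.18 and 8.89 CPM with scrambled siRNA. ANKRD37, a small ankyrin-repeat gene induced by HIF1A, was highest in s46 replicate 1 and lowest in scrambled replicate 2, the remaining libraries overlapped, and the log2 difference was 0.27 ± 0.27 (SE; edgeR adjusted p 0.611), or 0.41 ± 0.32 (SE; edgeR adjusted p 0.79) without scrambled replicate 1. UFSP2 overlaps it on the other strand, which held 48.9% of the stranded reads there.

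VEGFA, the angiogenic growth factor, stood at 14.9 to 30.4 CPM with the TLX1 siRNAs and 21.4 to 29.1 CPM with scrambled siRNA, with a log2 difference of -0.06 ± 0.20 (SE; edgeR adjusted p 0.9). BNIP3L, a receptor for the removal of mitochondria, was at 195 to 252 CPM with the TLX1 siRNAs and 159 to 239 CPM with scrambled siRNA, with 0.10 ± 0.14 (SE; edgeR adjusted p 0.719). P4HA1, a collagen prolyl hydroxylase subunit, was at 65.0 to 109 CPM with the TLX1 siRNAs and 62.8 to 106 CPM with scrambled siRNA, with 0.03 ± 0.19 (SE; edgeR adjusted p 0.95). None of these 3 separated the groups. KDM3A, a histone demethylase, was at 169 to 249.9 CPM with the TLX1 siRNAs and 162 to 255 CPM with scrambled siRNA, with -0.13 ± 0.15 (SE; edgeR adjusted p 0.665). MXI1, which competes with MYC for its partner, was at 9.70 to 16.5 CPM with the TLX1 siRNAs and 9.19 to 14.6 CPM with scrambled siRNA, with 0.21 ± 0.19 (SE; edgeR adjusted p 0.57). Their 95% intervals all lay within 2-fold. The median over the 7 tested genes of this kind was 0.028, or -0.055 without scrambled replicate 1.

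BNIP3 and P4HA2 were too low to test with all 9 libraries. BNIP3, the close relative of BNIP3L, had 1, 5 and 4 reads with s46 and 2, 1 and 5 reads with s47, against 5, 18 and 10 reads with scrambled siRNA. That is 18 reads in 6 TLX1 siRNA libraries and 33 in 3 scrambled libraries, while 94.2% of the stranded reads at the gene lay on the opposite strand and its pseudogene copies held 79.7% of the summed reads. It passed the filter on low counts with pseudogene reads added and in several fits without some libraries, such as scrambled replicate 1. In the fit without scrambled replicate 1 it passed through its other scrambled libraries, so no difference is given. P4HA2, the other collagen hydroxylase subunit of the list, had 1 read in s47 replicate 1 and 0 in the other 8 libraries.

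The balance within a family was read as the share of 1 named isoform in the summed reads per kb of its listed members. Isoforms outside the list were not counted. In all, 10 such shares were compared by exact two-sided permutation tests over all 84 assignments of the labels. These tests pool both siRNAs and treat the libraries as freely exchangeable, so they leave out any sharing by replicate number. EGLN3 made up 17.4%, 19.1% and 22.2% of EGLN1 plus EGLN3 with s46 and 16.6%, 19.9% and 23.0% with s47, against 33.2%, 31.5% and 40.1% with scrambled siRNA. The groups did not overlap, and the mean was 19.7% ± 2.57 (SD, n = 6) with the TLX1 siRNAs and 34.9% ± 4.57 (SD, n = 3) with scrambled siRNA (exact permutation p 0.0238, the smallest value possible here; adjusted over 10 families 0.119). Without scrambled replicate 1 the scrambled mean was 35.8%. SLC16A3 made up 1.85%, 3.18% and 2.79% of SLC16A1 plus SLC16A3 with s46 and 1.83%, 2.75% and 2.5% with s47, against 5.78%, 3.89% and 5.84% with scrambled siRNA. Here too the groups did not overlap (means 2.48% ± 0.544, n = 6, and 5.17% ± 1.11, n = 3; exact permutation p 0.0238, adjusted 0.119), and without scrambled replicate 1 the scrambled mean was 4.87%. Neither share passed after adjustment. With 84 assignments and 10 families, these shares alone could not have passed even at the smallest p possible, so the adjusted values cannot show that they were alike. Both shares sum the opposite differences of genes already described.

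The other 8 shares overlapped between the groups. Here the reads of a family, such as the enolase, hexokinase or glucose transporter reads, are those of its listed members only. LDHB was 56.9% ± 3.02 of the lactate dehydrogenase reads per kb with the TLX1 siRNAs (SD, n = 6) and 51.7% ± 4.19 with scrambled siRNA (SD, n = 3; exact permutation p 0.119, adjusted 0.298), with 46.9% in scrambled replicate 1. ENO2 was 1.53% ± 0.218 of the enolase reads with the TLX1 siRNAs (SD, n = 6) and 2.17% ± 0.730 with scrambled siRNA (SD, n = 3; exact permutation p 0.0952, adjusted 0.298). HK2 held 20.5% and 19.0% of the hexokinase reads with the TLX1 siRNAs and scrambled siRNA, and PFKP 71.4% and 69.7% of the phosphofructokinase reads. SLC2A3 held 25.9% and 29.2% of the glucose transporter reads, PFKFB4 27.0% and 31.3%, and ALDOC 0.214% and 0.221% of the aldolase reads, in the same order of groups. P4HA2 held 0.00349% with the TLX1 siRNAs and 0% with scrambled siRNA, from 1 read. The adjusted p of these 6 shares was 0.381 to 1.

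**Figure D5:**
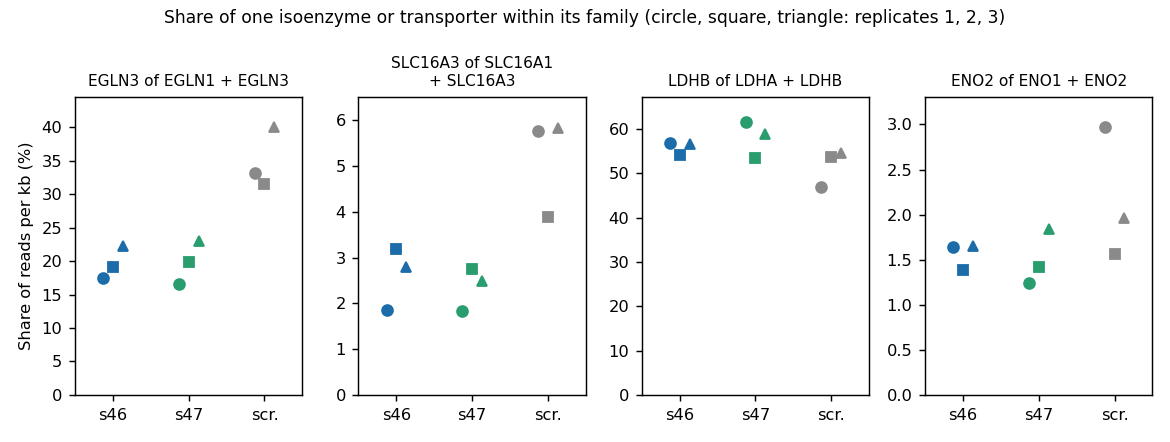
Share of 1 isoform in the reads per kb of 4 families in each library (y axes, percent, from 0; circles, squares and triangles are replicates 1, 2 and 3). EGLN3 (16.6% to 23.0% with the TLX1 siRNAs and 31.5% to 40.1% with scrambled siRNA) and SLC16A3 do not overlap between the groups, whereas LDHB and ENO2 do, with scrambled replicate 1 the most distant library for both.

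Genes next to glycolysis and the hypoxia response were read from lists of other pathway members, and the only call was in the citric acid cycle. IDH3A had 86.6, 84.6 and 80.3 CPM with s46 and 84.1, 78.7 and 79.9 CPM with s47, against 46.5, 58.5 and 50.3 CPM with scrambled siRNA. IDH3A encodes the catalytic subunit of the NAD-dependent isocitrate dehydrogenase of mitochondria, and all 6 TLX1 siRNA libraries were above all 3 scrambled libraries. It rose by 0.67 ± 0.10 (SE; edgeR adjusted p 0.0123) on the log2 scale, by 0.70 with s46 (adjusted p 0.0386) and by 0.64 with s47 (adjusted p 0.0439). The rise was 0.60 without scrambled replicate 1 (adjusted p 0.00946), and the call was lost without scrambled replicate 3 (0.65, adjusted p 0.09035) and without the 3 libraries numbered 1 (0.57, adjusted p 0.0529). The calls with s46 and with s47 alone were also lost with library totals, with unstranded counts, with only the groups compared, and without any 1 of the 6 TLX1 siRNA libraries, scrambled replicate 3 or the libraries numbered 1. In those fits the adjusted p was 0.0504 to 0.222 with s46 and 0.0527 to 0.213 with s47. The other 16 genes of the cycle were not called, among them IDH2, the most abundant, with 0.03 ± 0.10 (SE; edgeR adjusted p 0.907). The median of the 17 was 0.075.

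In the remaining lists edgeR called 0 genes in either direction. Of 35 other glycolytic isoenzymes and side reactions 12 were tested, with a median log2 difference of -0.00031, and the most abundant, the ADP-dependent glucokinase ADPGK, had -0.01 ± 0.09 (SE; edgeR adjusted p 0.953). Of 19 regulators of the HIF pathway 17 were tested, with a median of 0.093, and MYC, the most abundant of them, had 0.33 ± 0.19 (SE; edgeR adjusted p 0.366). Of 30 further hypoxia-induced genes 19 were tested, with a median of -0.16, and CXCR4, a chemokine receptor, was the most abundant, with 0.31 ± 0.12 (SE; edgeR adjusted p 0.237). Of 13 genes of pyruvate dehydrogenase and mitochondrial pyruvate import 11 were tested, with a median of 0.21, and PDPR, a regulator of pyruvate dehydrogenase phosphatase, had -0.22 ± 0.19 (SE; edgeR adjusted p 0.538). All 8 genes of the pentose phosphate pathway were tested, with a median of -0.079, and TKT, a transketolase, had -0.06 ± 0.12 (SE; edgeR adjusted p 0.811). Without scrambled replicate 1 the calls in these lists were again 0, and the medians were -0.054 for the other glycolytic genes, 0.074 for the HIF regulators, -0.084 for the further hypoxia genes, 0.084 for the pyruvate genes and -0.043 for the pentose phosphate genes.

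The library numbered 1 had the lowest overall output of these genes in each group. The 36 genes took 1.09% of gene reads in s46 replicate 1 and 1.09% in s47 replicate 1, against 0.990% in scrambled replicate 1, and 1.21% to 1.26% in the other 6 libraries. The glycolytic enzymes alone took 0.937% in s46 replicate 1 and 0.971% in s47 replicate 1, against 0.854% in scrambled replicate 1, and 1.082% to 1.12% in the other 6 libraries. Within groups, ALDOA, GPI and HIF1A were the steadiest members, with SDs of 0.080, 0.115 and 0.117 on the log2 scale, and PFKFB4, PFKFB3, ANKRD37, SLC2A3 and DDIT4 the most variable, at 0.448 to 0.907.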

How the data were processed

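The files hold read counts per gene as the authors deposited them, with 1 table for each library and GRCh38 as the build, per the submitters' processing notes. Which aligner, counter and gene models were used is not given in the sources used here. The kit kept strand and removed ribosomal RNA, per the labels' protocols. Each table counts reads without regard to strand and for either strand, and the sense column was used. Lines that name no gene were left out: unmapped reads (4.52% to 6.70%), multimapping reads (6.36% to 14.4%), reads outside genes (23.8% to 36.8%) and ambiguous reads (2.12% to 4.44%). Genes with near-identical copies can therefore be undercounted.

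GENCODE 29 gave symbols for 57488 of 58096 gene IDs, and exon lengths and 3′ UTRs. Low genes were removed by filterByExpr (minimum count 10), and scaling was by TMM. The quasi-likelihood F test of edgeR 4.0.16 (robust, under R 4.3.3) was run once over the 9 libraries with group as its only term, with Benjamini-Hochberg adjustment across every tested gene (threshold 0.05). SEs were derived from the F statistics. The fit was tested on simulated counts with known changes. These held no outlying library and no sharing by replicate number, so that test does not cover either. RPKM values divide scaled CPM by merged exon length. Exact permutation tests used scipy 1.17.1 in Python 3.11.15.

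Members and gene lists were chosen with earlier results of these data known. The naming rule takes members called in any comparison with scrambled siRNA, otherwise the 12 with the largest absolute log2 difference, the top isoforms of each family with per-length levels, and the called and most abundant genes of other lists. Statistics of further members were added after their values were seen. Alternatives were library totals or RLE scaling, DESeq2 1.42.0, no filter, unstranded counts, fits of the compared groups alone, a replicate block, added pseudogene reads, and fits that left out libraries.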

Additional observations from a re-analysis of the deposited data

How the results depend on the processing

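In the main fit the 33 members had 0 calls in every comparison. Settings that called members also called more genes in all, and brackets give the share of all tested genes called. The fit without a filter tested 36 members among 31261 genes. For the mean of both siRNAs, the main counts were 0 of 33 members and 91 genes (0.566%). DESeq2 called 2 of 33 and 458 genes (2.85%), no filter 4 of 36 and 876 (2.8%), and the replicate block 2 of 33 and 222 (1.38%). With s46 (28 genes in all, 0.174%), library totals gave 14 genes, DESeq2 196, only the groups compared 6, and the replicate block 74. No filter gave 1 of 36 members and 384 genes (1.23%) with s46. With s47 (53 genes, 0.33%), DESeq2 gave 203 genes, only the groups compared 8, and leaving out the libraries numbered 1 gave 33. No filter gave 5 of 36 members and 432 genes (1.38%) with s47, and the replicate block 1 of 33 and 125 genes (0.778%). Between s46 and s47, no filter called 1 of 36 members (SLC2A3, adjusted p 0.0439) and 3 genes (0.0096%). Leaving out each library in turn gave 0 to 5 members and 22 to 1650 genes for the mean of both siRNAs, 0 to 1 and 4 to 225 with s46, and 0 to 2 and 4 to 275 with s47. At most, then, 5, 1 and 2 of 34 members were called, where 10.1%, 1.37% and 1.68% of all tested genes were. The highest counts came without scrambled replicate 2, when SLC16A1 (adjusted p 0.0171), EGLN1 (0.0384), DDIT4 (0.0323), LDHB (0.0337) and HIF1A (0.0323) were called for the mean of both siRNAs, and the lowest for that comparison without scrambled replicate 3. The members' median ranged from -0.065 to 0.068 over these fits for the mean of both siRNAs, -0.022 to 0.15 with s46 and -0.080 to 0.067 with s47. Without the libraries numbered 1 it was -0.029 with s46 and -0.040 with s47. These fits tested 34 or 35 members, so the medians are not over the same 33 genes. Each lower end came without scrambled replicate 1, where BNIP3 entered. The 33 alone gave -0.064 there for the mean of both siRNAs, -0.016 with s46 and -0.074 with s47. The cause of these shifts was not tested. Same-numbered libraries deviated together at r = 0.199 to 0.436 in 8 of 9 pairs, and s47 and scrambled replicates 2 were at -0.030. All 3 pairs exceeded 0.1 between s46 and scrambled siRNA and between s46 and s47. Between s47 and scrambled siRNA, numbers 1 and 3 were at 0.203 and 0.298. Differently numbered libraries of different groups were at -0.314 to 0.170. The main fit leaves out this sharing by number, and no label says what the numbers share. Under the replicate block, SLC16A3 (adjusted p 0.0461) and EGLN3 (0.0472) were called for the mean of both siRNAs and DDIT4 (0.0424) with s47. Without a filter on low counts, EGLN1 (adjusted p 0.0173) was called higher and SLC16A3 (0.00423), EGLN3 (0.00627) and DDIT4 (0.00869) lower. RLE scaling, unstranded counts and added pseudogene reads called no member, and no sign of a called value was reversed. Fitting only the groups compared was the same as the main fit for the mean of both siRNAs. Fold limits rest on 3 libraries a group, and PDK1, BNIP3 and P4HA2 were too low to compare at this depth.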

Other observations

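PDK1 belonged to a set of genes seen almost only in the libraries numbered 1. Of its 42 reads, 40 came from s46, s47 and scrambled replicates 1 and 2 from the other 6 libraries. In all, 27 of the 58096 genes had at least 5 reads in each library numbered 1 and at most 2 in each other library, where 2 genes met the same rule for number 2 and 1 gene for number 3. The rule was chosen after these values were seen, and the source of the reads was not tested. PKM, an abundant member, was also lowest in the library numbered 1 of each group, at 342 CPM with s46 and 370 CPM with s47, against 363 CPM with scrambled siRNA, whereas the other 6 libraries stood at 548 to 636 CPM.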
